A study of Mus musculus with 8 samples.

Results

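The genes described are those of the mouse major histocompatibility complex (MHC, called H2 in mice) and of antigen presentation. They were chosen by symbol: every row of the deposited count table that starts with H2-, together with B2m, Cd74, Ciita, Nlrc5, Tap1, Tap2, Tapbp, Psmb8, Psmb9 and Psmb10. This gave 55 of 48587 genes. They comprise 32 class I molecules, 8 genes of the class I pathway, 12 class II molecules, 2 genes of the class II pathway, and H2-Ke6, whose H2- symbol marks its place in the complex but which encodes a dehydrogenase and no MHC molecule. Of the 55 genes, 50 lie on chromosome 17, 2 on chromosome 8 (Nlrc5 and Psmb10), and 1 each on chromosomes 2 (B2m), 16 (Ciita) and 18 (Cd74).

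RNA was sequenced from the whole aortic tree of mice as poly-A enriched libraries, and reads were counted per gene. The 8 libraries form 4 groups of 2: mice labelled with a VSMC-specific Tet2 knockout given VitD, the same genotype given vehicle, WT mice given VitD, and WT mice given vehicle. VSMC stands for vascular smooth muscle cell, TET2 oxidises methylated cytosine in DNA, and vitamin D overload provokes calcification of the arterial media. The strain, age and sex of the mice, the Cre driver, the deleted part of Tet2, the dose and duration of VitD, and the number of mice per library are left unstated in the sources used here. Whether both libraries of a group stem from different animals is not stated. Every p-value therefore covers the variation between libraries alone, part or all of which may be technical.

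Libraries held 15679274 to 22332149 counts, and the antigen presentation genes took 0.216% to 0.299% of them. Values are CPM, that is counts scaled to library size after trimmed-mean (TMM) normalisation. Tet2 stood at 26.6 and 37.6 CPM in the knockout VitD libraries, 42 and 35.2 in knockout vehicle, 18.3 and 20.0 in WT VitD and 35.8 and 32.2 in WT vehicle, so the knockout label was not matched by less Tet2 RNA. Since the deleted part is not named, the count over the whole gene is a weak check, and the groups keep the names their labels give. The 6 smooth muscle markers summed to 14776 to 29260 CPM per library. The library names carry numbers in 2 separate ranges: both WT VitD libraries and knockout VitD library 1 fall in the higher one, and the other 5 in the lower one. In WT, the number range and VitD therefore cannot be told apart. WT vehicle library 1 stood apart in T cell and thymocyte markers, with a sum of 125.8 CPM for 12 genes, against 5.41 to 43.3 CPM in the other libraries.

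Class I molecules are made by nearly all nucleated cells and show peptides from the cell's own proteins to CD8 T cells. Their heavy chain pairs with beta-2 microglobulin (B2m). The immunoproteasome (Psmb8, Psmb9, Psmb10) cuts the peptides, the TAP transporter (Tap1, Tap2) carries them into the endoplasmic reticulum, and tapasin (Tapbp) holds the empty molecule at the transporter. Class II molecules are pairs of an alpha and a beta chain made mainly by macrophages, dendritic cells and B cells, and they show peptides from ingested material to CD4 T cells. The invariant chain (Cd74) guides them to endosomes, and H2-DM exchanges its last fragment for a peptide, a step that H2-O restrains. NLRC5 drives class I transcription and CIITA drives class II transcription, both through promoter elements called the X and Y boxes, and interferon gamma induces both routes. In an artery, class II marks resident and recruited immune cells of the adventitia, while class I comes from every cell layer. In whole tissue, a change in the number of such cells and a change of RNA per cell cannot be told apart.

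Promoter sequences are shown for 7 genes on which the results below turn, to let their elements be compared. They are the 200 bases before the start given by RefSeq (GRCm38.p6), read on the gene's own strand. Capitals mark a Y box core (CCAAT, or ATTGG on the other strand), the core of the X2 box (TGACG or CGTCA), an interferon response element (ISRE, a pair of GAAA with any 2 bases between), a STAT element (GAS, TTC and GAA with any 3 bases between) and a kappa B site (GGGGA joined to TTCCC). The class II alpha chain gene H2-Aa (chr17:34287824-34288023, minus strand) and beta chain gene H2-Eb1 (chr17:34305667-34305866, plus strand) come first.
H2-Aa: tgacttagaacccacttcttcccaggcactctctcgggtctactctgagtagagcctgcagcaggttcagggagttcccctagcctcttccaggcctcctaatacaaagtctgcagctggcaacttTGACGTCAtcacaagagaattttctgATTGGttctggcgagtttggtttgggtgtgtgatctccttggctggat
H2-Eb1: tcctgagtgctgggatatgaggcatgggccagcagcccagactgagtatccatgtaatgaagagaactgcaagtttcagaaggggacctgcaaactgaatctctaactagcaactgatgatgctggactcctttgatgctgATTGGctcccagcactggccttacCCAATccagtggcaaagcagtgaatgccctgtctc
The classical class I genes are H2-K1 (chr17:34000348-34000547, minus strand), for which RefSeq gives a second start close by, and H2-D1 (chr17:35262894-35263093, plus strand).
H2-K1: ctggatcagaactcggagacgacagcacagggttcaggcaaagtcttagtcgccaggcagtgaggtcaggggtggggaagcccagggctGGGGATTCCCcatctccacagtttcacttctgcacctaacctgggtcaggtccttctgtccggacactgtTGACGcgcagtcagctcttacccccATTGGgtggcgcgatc
H2-D1: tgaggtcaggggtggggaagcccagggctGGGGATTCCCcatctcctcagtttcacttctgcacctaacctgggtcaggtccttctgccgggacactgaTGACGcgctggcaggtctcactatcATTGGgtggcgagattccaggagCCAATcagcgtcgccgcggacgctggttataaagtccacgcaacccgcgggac
The non-classical class I gene H2-T22 (chr17:36042743-36042942, minus strand), B2m (chr2:122147487-122147686, plus strand) and the immunoproteasome subunit gene Psmb8 (chr17:34197995-34198194, plus strand) complete the set.
H2-T22: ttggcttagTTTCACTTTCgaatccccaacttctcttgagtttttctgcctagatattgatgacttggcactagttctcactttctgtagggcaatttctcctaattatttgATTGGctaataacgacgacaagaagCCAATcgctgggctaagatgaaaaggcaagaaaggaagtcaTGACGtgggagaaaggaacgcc
B2m: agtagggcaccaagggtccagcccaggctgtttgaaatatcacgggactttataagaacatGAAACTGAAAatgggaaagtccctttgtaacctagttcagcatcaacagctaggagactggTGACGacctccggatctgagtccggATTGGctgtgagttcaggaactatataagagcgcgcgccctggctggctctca
Psmb8: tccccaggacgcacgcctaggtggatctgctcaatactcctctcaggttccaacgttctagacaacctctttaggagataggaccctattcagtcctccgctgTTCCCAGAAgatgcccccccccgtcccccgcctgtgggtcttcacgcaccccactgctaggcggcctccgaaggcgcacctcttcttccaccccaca

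In H2-Aa the X2 core lies 74 to 70 bases before the start and overlaps its own reverse copy, and the Y box core follows 48 to 44 bases before the start. B2m has the same order, with an ISRE at 139 to 130, an X2 core at 78 to 74 and a Y box core at 53 to 49 bases before the start. In H2-K1 and H2-D1 a kappa B site, an X2 core and a Y box core follow each other in that order. H2-T22 has no match to the kappa B letters and carries its ISRE match on the other strand, 191 to 182 bases before the start. Psmb8 holds a GAS match and no match to the other 4 motifs, and H2-Eb1 holds Y box cores without a match to the X2 letters. The windows of Psmb8 and H2-D1 lie before the RefSeq start but inside the gene in the GENCODE annotation. There the genes begin at 34197721 and 35262730. RefSeq promoters were found for 38 of the 55 genes, 23 of them among the 32 tested below. A Y box core, on either strand, stood in 8 of 9 class II and 22 of 25 class I promoters, against 29.3% of 32851 promoters of all genes. An X2 core stood in 1 of 9 class II and 11 of 25 class I promoters, against 15.7% of all. The kappa B letters stood in 5 of 25 class I promoters and in 22 promoters of all genes (0.067%), these 5 included. The 5 were both windows of H2-K1, which overlap and share the site, and those of the paralogs H2-D1, H2-Q6 and H2-Q7. An ISRE stood in 3 of 41 promoters of the antigen presentation genes, against 2.27% of all. A short X box element searched for (ACAGATG) stood in 2 of these 41 promoters, against 3.17% of all, and a GAS match in 1 of 41, against 5.49%. All motifs were searched on both strands. A match describes letters in this window and is no evidence of binding. Only these exact letters were searched, so a missing match does not show that an X box, an ISRE or another element is absent.

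Of the 55 genes, 32 passed the filter on low counts and were tested, and each of these had a count in all 8 libraries. A further 14 had counts but were not tested, and 9 had no count in any library. The 9 were the class II genes H2-Pa, H2-Pb and H2-Ea-ps and the class I genes H2-Q3, H2-M10.3, H2-M10.4, H2-M10.5, H2-M10.5-ps1 and H2-M10.6. H2-Ea-ps is a silent alpha chain gene in mice of the b haplotype, and the M10 family is known from the vomeronasal organ. The 14 held between 1 count (H2-T3) and 55 counts (H2-Oa, the alpha chain of H2-O) over all libraries together, and H2-Eb2 had 46 and H2-Ke6 had 49.

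Per kilobase of exon, B2m had the highest level, at 833 CPM per kb over the 8 libraries. The heavy chains H2-D1 and H2-K1 followed at 224 and 158, and Cd74 at 107 CPM per kb. The class II chains H2-Eb1, H2-Ab1 and H2-Aa stood at 28.9, 24.8 and 19.5 CPM per kb, close to the non-classical heavy chains H2-T23, H2-T22 and H2-Q4 at 22.9, 18.5 and 18.4. The transactivator genes were low, with Nlrc5 at 1.27 and Ciita at 0.369 CPM per kb. Class I molecules summed to 947.2 to 1532 CPM per library and class II molecules to 161.5 to 302.3 CPM.

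**Figure D1:**
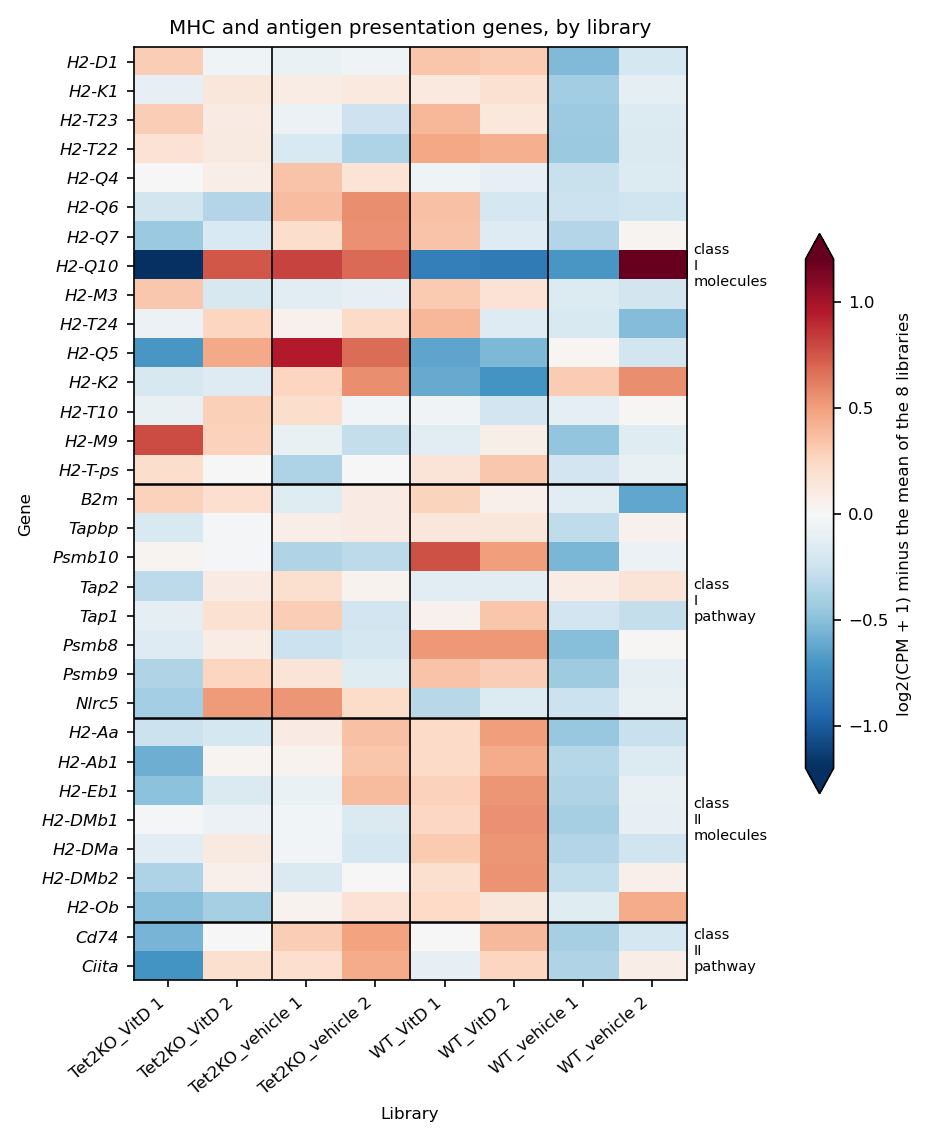
Heat map of the 32 tested genes (rows, by class) in the 8 libraries (columns, by group). Colour gives log2(CPM + 1) minus the gene's mean of that value over the 8 libraries, and values beyond the ends of the scale take the end colours. H2-Aa, H2-Ab1 and H2-Eb1 are above their mean in both WT VitD libraries and below it in both WT vehicle libraries.

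In WT aortas, VitD went with higher RNA of 4 antigen presentation genes, by 1.67 to 1.95 times, and lower RNA of 1. H2-Aa, the alpha chain of the class II molecule I-A (mm10, chromosome 17, 34282744 to 34287823, minus strand), stood at 84.9 and 102 CPM in WT VitD, against 52.3 and 59.9 in WT vehicle. Its means were 93.6 ± 12.3 CPM in WT VitD and 56.1 ± 5.37 CPM in WT vehicle (SD, n = 2 each), and it was called higher by edgeR's quasi-likelihood test with Benjamini-Hochberg adjustment (log2 0.74, SE 0.179, adjusted p = 0.0256). The class I heavy chain gene H2-T22 (chromosome 17, 36037128 to 36042747, minus strand) stood at 85.5 and 82.8 CPM in WT VitD, against 44.9 and 54.5 in WT vehicle (log2 0.76, SE 0.17, adjusted p = 0.021). In both genes each VitD library lay above each vehicle library.

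The other genes called higher were immunoproteasome subunits. Psmb10 (chromosome 8, 105935735 to 105938444, minus strand) stood at 45.8 and 38 CPM in WT VitD, against 17.8 and 25.2 in WT vehicle (log2 0.96, SE 0.21, adjusted p = 0.02). Psmb8 (chromosome 17, 34197721 to 34201454, plus strand) stood at 22.5 and 22.5 CPM in WT VitD, against 10.6 and 15.6 in WT vehicle (log2 0.78, SE 0.237, adjusted p = 0.0478). The third subunit, Psmb9, stood at 15.6 and 15 CPM in WT VitD, against 8.7 and 11.1 in WT vehicle, and was not called (log2 0.63, SE 0.281, adjusted p = 0.136). All 3 subunits had non-overlapping groups. The gene called lower was H2-K2 (chromosome 17, 33974659 to 33978827, minus strand), annotated as a pseudogene, with 2.05 and 1.81 CPM in WT VitD, against 4.72 and 5.81 in WT vehicle, which is 2.72-fold lower (log2 -1.45, SE 0.332, adjusted p = 0.0224).

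These 5 of 32 genes made 15.6%, against 20.1% of all 16194 genes tested, where 10.6% were called higher and 9.47% lower. The share of antigen presentation genes called was thus no larger than that of all genes. Their median log2 fold change was 0.52, against -0.03 over all genes, and 25 of the 32 had a positive one, against 7844 of all 16194 genes. Groups did not overlap in 23 genes with VitD higher and 4 with VitD lower, against 33.8% and 35.3% of all genes. At an unadjusted p under 0.05 edgeR gave 10 higher and 1 lower of the 32, against 18.9% and 19.1% of all genes. DESeq2 called 8 of the 32, against 24.2% of all genes.

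In WT, the calls could not be told apart from the number range. An edgeR model with that range as a term rests on the knockout VitD libraries, so it cannot decide on the WT calls. In it the median log2 in WT was 1.06 for class II and 0.53 for class I genes, against 0.64 and 0.47 without the term. It called 0 of the 32 genes, and 0.358% of all genes. Likewise 0 were called without WT VitD library 1 (5.91% of all genes), WT VitD library 2 (0.828%) or WT vehicle library 1 (1.33%), and Psmb10 alone without WT vehicle library 2 (3.53%). Without knockout VitD library 1 or 2, which enter this comparison through the normalisation, the filter and the shared estimate of spread, 11 were called (29.1% of all genes in each case). The call of Psmb8 was also lost without knockout vehicle library 1 (adjusted p = 0.0766) or 2 (adjusted p = 0.0758) in edgeR.

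The class II beta chains had values in the same direction as H2-Aa in WT but did not pass the threshold in edgeR's test of all 8 libraries. H2-Ab1, the beta chain of I-A, stood at 73.1 and 84.7 CPM in WT VitD, against 48.7 and 55.4 in WT vehicle (log2 0.60, SE 0.232, adjusted p = 0.0947). H2-Eb1, a beta chain of I-E, stood at 66.3 and 79.4 CPM in WT VitD, against 42.3 and 51.2 in WT vehicle (log2 0.64, SE 0.22, adjusted p = 0.069). For both genes the libraries of the groups were apart. DESeq2 called H2-Eb1 higher (adjusted p = 0.0498), and in edgeR's fit of only the groups compared both H2-Eb1 (adjusted p = 0.0351) and H2-Ab1 (adjusted p = 0.0338) were called.

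The peptide exchange subunits had the same direction. H2-DMa stood at 10.8 and 12.7 CPM in WT VitD, against 6.46 and 7.06 in WT vehicle (log2 0.80, SE 0.246, adjusted p = 0.0506). H2-DMb1 stood at 13.4 and 16.8 CPM in WT VitD, against 8.2 and 10.4 in WT vehicle (log2 0.70, SE 0.237, adjusted p = 0.0649). H2-DMb2, the other DM beta chain, stood at 2.58 and 3.57 CPM in WT VitD, against 1.55 and 2.28 in WT vehicle (log2 0.68, SE 0.438, adjusted p = 0.282). Cd74, the invariant chain, stood at 175 and 229 CPM in WT VitD, against 132 and 151 in WT vehicle (log2 0.51, SE 0.238, adjusted p = 0.149). Ciita, the class II transactivator, stood at 3.11 and 4.25 CPM in WT VitD, against 2.42 and 3.65 in WT vehicle, with overlapping groups (log2 0.28, SE 0.462, adjusted p = 0.686). H2-Ob, the beta chain of H2-O, also overlapped, at 2.32 and 2.09 CPM in WT VitD, against 1.55 and 2.85 in WT vehicle (log2 -0.00, adjusted p = 0.999). Of these class II genes H2-Aa alone was called in edgeR's test of all 8 libraries, and H2-DMa passed in edgeR with DESeq2 size factors (adjusted p = 0.046) or a filter of 1 CPM in 2 libraries (adjusted p = 0.0494).

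**Figure D2:**
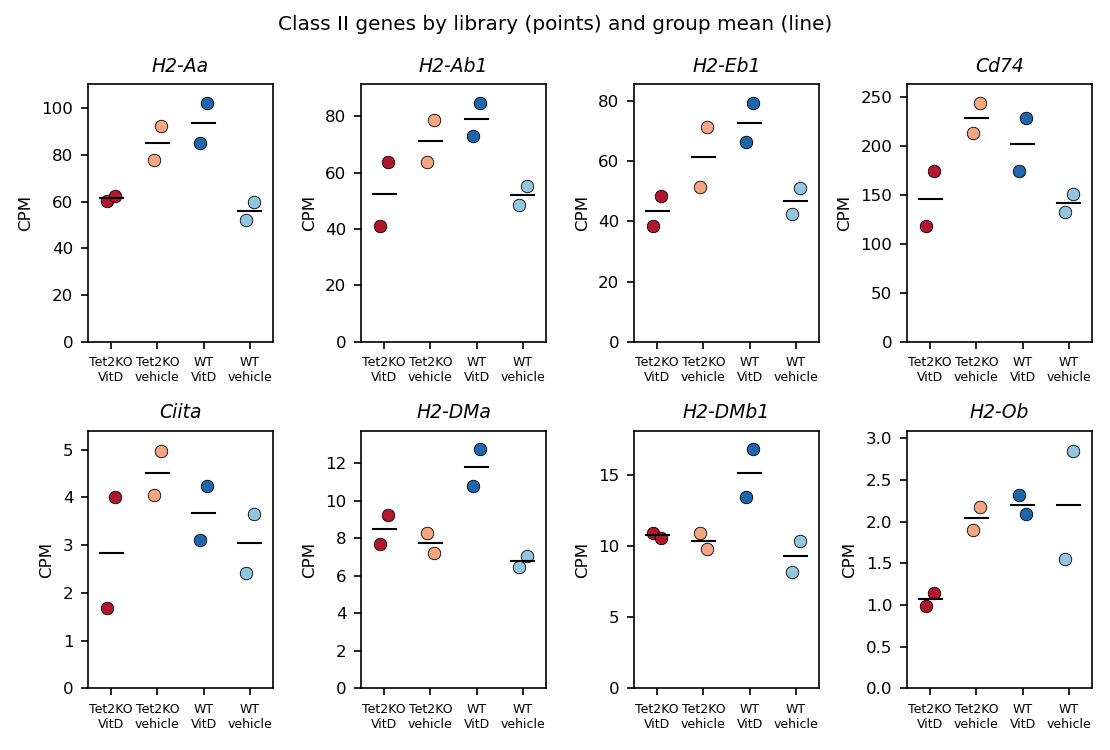
CPM (linear axis from 0) of 8 class II genes in each library, 1 panel per gene. Points are libraries and the horizontal bars are the group means (n = 2). H2-Aa, H2-Ab1, H2-Eb1 and Cd74 lie above vehicle under VitD in WT and below vehicle under VitD in the libraries labelled Tet2 knockout.

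In the libraries labelled Tet2 knockout, no antigen presentation gene was called between VitD and vehicle by edgeR or by DESeq2, against 0.198% of all genes by edgeR and 2.97% by DESeq2. At an unadjusted p under 0.05 edgeR gave 2 higher (H2-T22 and H2-M9) and 5 lower, of 32, against 8.65% higher and 4.61% lower over all genes. The 5 were Cd74, H2-Aa, H2-Q6, H2-Q7 and H2-K2. The class II chains lay below vehicle. H2-Aa stood at 60.4 and 62.3 CPM in knockout VitD, against 77.6 and 92.3 in knockout vehicle (log2 -0.47, SE 0.179, adjusted p = 0.32).

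Cd74 stood at 118 and 174 CPM in knockout VitD, against 214 and 244 in knockout vehicle (log2 -0.65, SE 0.238, adjusted p = 0.307). H2-Eb1 stood at 38.6 and 48.4 CPM in knockout VitD, against 51.4 and 71.5 in knockout vehicle (log2 -0.50, SE 0.22, adjusted p = 0.377). H2-Ab1 stood at 41.1 and 63.6 CPM in knockout VitD, against 63.8 and 78.6 in knockout vehicle (log2 -0.44, SE 0.231, adjusted p = 0.429). In these genes both VitD libraries lay below both vehicle libraries, for H2-Ab1 by a margin that is small next to the gap between its VitD libraries.

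Ciita had the same order, with 1.68 and 4 CPM in knockout VitD, against 4.05 and 4.97 in knockout vehicle (log2 -0.65, SE 0.458, adjusted p = 0.536). Its margin too was small next to the gap between its VitD libraries. H2-Ob stood at 0.994 and 1.14 CPM in knockout VitD, against 1.9 and 2.18 in knockout vehicle (log2 -0.92, SE 0.454, adjusted p = 0.41). The H2-DM subunits did not follow. H2-DMa stood at 7.7 and 9.24 CPM in knockout VitD, against 8.28 and 7.2 in knockout vehicle (log2 0.13, SE 0.245, adjusted p = 0.822), and H2-DMb1 at 10.9 and 10.6 in knockout VitD, against 10.9 and 9.77 in knockout vehicle (log2 0.06, SE 0.236, adjusted p = 0.925). Over the 9 class II genes the median log2 was -0.47, and 7 were negative, against 8176 of all 16194 genes. All VitD libraries lay below vehicle in 6 and above in 0, against 22.2% below and 23.7% above of all genes.

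Knockout VitD library 1 had the lower class II sum of its group, at 161.5 CPM, and it is the knockout library in the higher number range. Library 2, in the same range as both knockout vehicle libraries, had a class II sum of 198.1 CPM, against 216.3 and 265.1 in those vehicle libraries, and H2-Aa at 62.3 CPM, against 77.6 and 92.3 CPM in the vehicle libraries. Without library 1 the class II median log2 was -0.16, and without library 2 the genes Cd74 (log2 -0.95, adjusted p = 0.0357) and H2-Q5 (log2 -1.82, adjusted p = 0.0213) were called lower by edgeR, in a fit that called 11.2% of all genes.

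The classical class I heavy chains were not called in edgeR's test of all 8 libraries in any comparison. H2-K1 (chromosome 17, 33996017 to 34000347, minus strand) stood at 429 and 505 CPM in knockout VitD, against 488 and 497 in knockout vehicle (log2 -0.08, SE 0.204, adjusted p = 0.879). In WT it stood at 499.8 and 521 CPM under VitD, against 345 and 423 under vehicle (log2 0.41, SE 0.204, adjusted p = 0.174). H2-D1 (chromosome 17, 35262730 to 35267499, plus strand) stood at 696 and 549.5 CPM in knockout VitD, against 537 and 547 in knockout vehicle (log2 0.20, SE 0.217, adjusted p = 0.682). In WT it stood at 714 and 701 CPM under VitD, against 394 and 490.4 under vehicle (log2 0.68, SE 0.218, adjusted p = 0.0566). DESeq2 called H2-D1 higher in WT (log2 0.70, adjusted p = 0.0102), as did edgeR in the fit of only the groups compared (adjusted p = 0.0341), without a filter on low counts (0.0392) and without knockout VitD library 1 (0.0161) or 2 (0.0173). The WT groups of both genes were apart, and WT vehicle library 1 was the lowest of the 8 libraries for each.

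B2m (chromosome 2, 122147686 to 122153083, plus strand) stood at 852 and 811 CPM in knockout VitD, against 635 and 756 in knockout vehicle (log2 0.26, SE 0.237, adjusted p = 0.629), and at 848 and 734 in WT VitD, against 641 and 455 in WT vehicle (log2 0.53, SE 0.237, adjusted p = 0.137). Nlrc5, the class I transactivator, stood at 7.64 and 15.3 CPM in knockout VitD and 15.5 and 12.4 in knockout vehicle, and at 8.14 and 9.23 in WT VitD and 8.58 and 9.8 in WT vehicle. Its groups overlapped in both genotypes (log2 -0.28 in the knockout and -0.08 in WT). No B2m or Nlrc5 difference was called in any comparison.

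Among non-classical heavy chains, H2-T22 had the same sign in both genotypes. It stood at 69.6 and 66.2 CPM in knockout VitD, against 54.1 and 47.2 in knockout vehicle, with both VitD libraries above both vehicle libraries (log2 0.42, SE 0.169, adjusted p = 0.339). H2-T23, which encodes Qa-1, the ligand of the NK receptor NKG2A, stood at 80.1 and 69.7 CPM in knockout VitD, against 62.1 and 54.8 in knockout vehicle (log2 0.36, SE 0.184, adjusted p = 0.426), and at 86.1 and 71.5 in WT VitD, against 48 and 57.9 in WT vehicle (log2 0.57, SE 0.185, adjusted p = 0.0578). Both genes were highest in VitD libraries, and DESeq2 called H2-T23 higher in WT (adjusted p = 0.0485).

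The Q genes had other patterns. H2-Q6 stood at 25.3 and 23.1 CPM in knockout VitD, against 38.7 and 44.2 in knockout vehicle (log2 -0.78, SE 0.216, adjusted p = 0.204), and at 38.2 and 25.6 in WT VitD, against 24.6 and 24.9 in WT vehicle (log2 0.36, SE 0.216, adjusted p = 0.247). H2-Q7, a Qa-2 gene, stood at 12.4 and 15.1 CPM in knockout VitD, against 20.1 and 25.7 in knockout vehicle (log2 -0.74, SE 0.263, adjusted p = 0.3), and at 22.1 and 15.4 in WT VitD, against 13.3 and 17.7 in WT vehicle (log2 0.27, SE 0.264, adjusted p = 0.471). For H2-Q6 the knockout vehicle libraries were the highest, with WT VitD library 1 next, and for H2-Q7 that WT library lay between them. H2-Q10, which encodes a secreted class I molecule made mainly by the liver, split the libraries across groups, with 4.29 and 19.6 CPM in knockout VitD, 20.6 and 18.8 in knockout vehicle, 5.96 and 5.83 in WT VitD and 6.59 and 30.5 in WT vehicle. In WT both VitD libraries lay below both vehicle libraries (log2 -1.66, SE 0.755, adjusted p = 0.142), and edgeR without a filter on low counts called it lower (adjusted p = 2.3e-06). In the knockout its groups overlapped (log2 -0.71, SE 0.724, adjusted p = 0.665).

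The remaining class I molecules had no call in edgeR's test of all 8 libraries. H2-Q4 stood at 47.4 and 50.1 CPM in knockout VitD, against 60.4 and 53 in knockout vehicle (log2 -0.22, SE 0.159, adjusted p = 0.545), and at 45.5 and 44.2 in WT VitD, against 39.1 and 42.3 in WT vehicle (log2 0.14, SE 0.159, adjusted p = 0.542). H2-M3, which presents peptides that begin with formylmethionine, stood at 16.2 and 11 CPM in knockout VitD, against 11.6 and 11.8 in knockout vehicle, and at 16.1 and 14.5 in WT VitD, against 11.3 and 10.8 in WT vehicle. Its groups were apart in WT and overlapped in the knockout.

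H2-Q5 stood at 2.73 and 7.3 CPM in knockout VitD, against 10.7 and 8.65 in knockout vehicle (log2 -0.94, SE 0.427, adjusted p = 0.39), and at 2.91 and 3.17 in WT VitD, against 5.16 and 4.22 in WT vehicle (log2 -0.62, SE 0.443, adjusted p = 0.329), with VitD libraries below vehicle libraries in both genotypes. H2-T24 stood at 5.28 and 6.86 CPM in knockout VitD, 5.83 and 6.7 in knockout vehicle, 7.68 and 4.92 in WT VitD and 4.79 and 3.59 in WT vehicle. Over the 8 libraries, H2-T10 stood between 2.43 and 3.92 CPM, H2-M9 between 0.622 and 2.86 CPM and the pseudogene H2-T-ps between 0.245 and 1.02 CPM.

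Reads of these paralogs cannot always be assigned. Of all windows of 50 bases in its transcripts, 36.4% in H2-Q5, 34.5% in H2-T22, 32% in H2-Q6, 26.4% in H2-Q7 and 22.7% in H2-DMb1 were also found in transcripts of other genes, and 9.63% in H2-K1. The share was 0 for B2m, Cd74, Ciita, H2-Ab1, H2-Eb1 and Psmb10 and 0.488% for H2-Aa. How reads that map to several places were counted is unstated in the sources used here, so values of the Q and T genes and of H2-K2 are uncertain. Tap1 and Psmb9 overlap on opposite strands, and the strand setting of the counting is not given either.

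**Figure D3:**
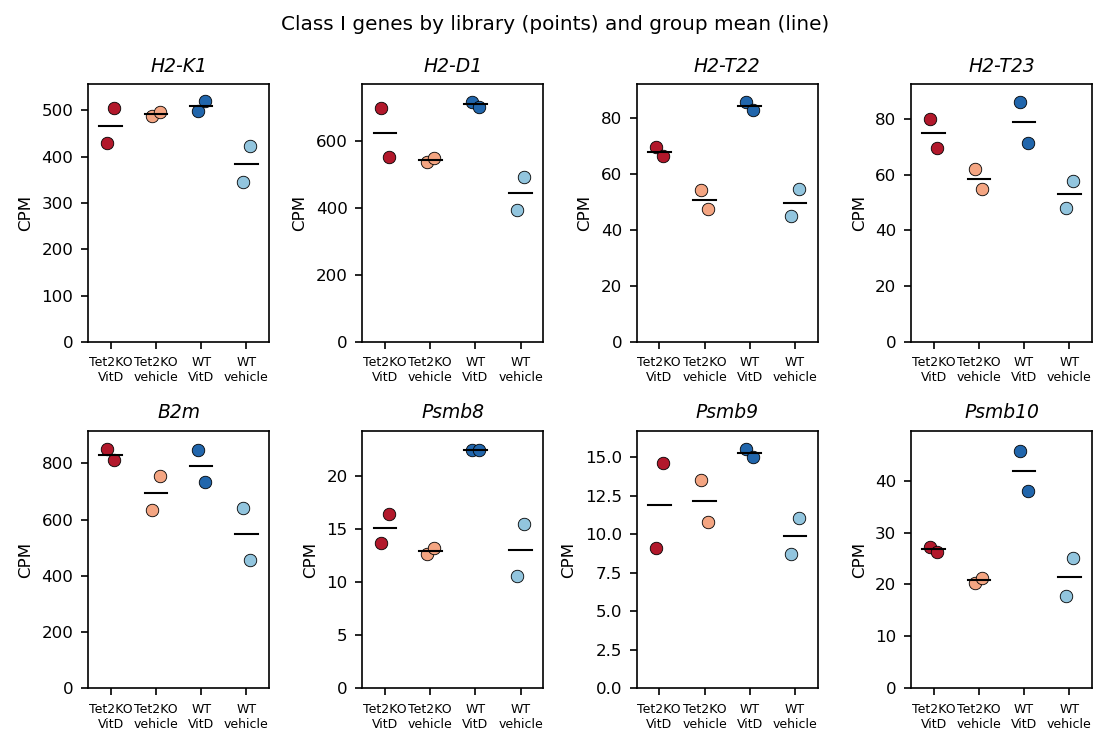
CPM (linear axis from 0) of 8 class I genes in each library, 1 panel per gene. Points are libraries and the horizontal bars are the group means (n = 2). H2-T22, H2-T23, B2m, Psmb8 and Psmb10 have both VitD libraries above both vehicle libraries in each genotype.

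In the class I pathway, the peptide transporter and tapasin had no called difference. Tap1 stood at 19.3 and 23.9 CPM in knockout VitD, against 25.9 and 17.7 in knockout vehicle (log2 -0.01, SE 0.238, adjusted p = 0.985), and at 21.8 and 26.7 in WT VitD, against 17.7 and 17 in WT vehicle (log2 0.48, SE 0.24, adjusted p = 0.173). Tap2 stood at 21.1 and 28.4 CPM in knockout VitD, against 30.4 and 27.2 in knockout vehicle (log2 -0.22, SE 0.195, adjusted p = 0.621). In WT, Tap2 stood at 24 and 24.1 CPM under VitD, against 28.2 and 29.5 under vehicle (log2 -0.26, SE 0.195, adjusted p = 0.349). The subunits of the transporter thus had opposite signs in WT.

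Tapbp stood at 144 and 162 CPM in knockout VitD, against 173 and 175 in knockout vehicle (log2 -0.18, SE 0.186, adjusted p = 0.659), and at 180.1 and 180.1 in WT VitD, against 132 and 169 in WT vehicle (log2 0.26, SE 0.186, adjusted p = 0.335). In the knockout, Psmb10 stood at 27.2 and 26.3 CPM under VitD, against 20.4 and 21.2 under vehicle (log2 0.37, SE 0.209, adjusted p = 0.463), and Psmb8 at 13.7 and 16.5 in knockout VitD, against 12.7 and 13.2 in knockout vehicle (log2 0.22, SE 0.237, adjusted p = 0.682). Both had VitD libraries above vehicle libraries without being called.

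The subunits that Psmb8, Psmb9 and Psmb10 replace in the standard proteasome are Psmb5, Psmb6 and Psmb7. Of these, 1 of 3 was called higher in WT, Psmb5 (log2 0.81, SE 0.235, adjusted p = 0.042), and 0 of 3 in the knockout. Over all genes, 10.6% were called higher in WT, and 0.198% either way in the knockout. For each 100 CPM of the constitutive subunits, the immunoproteasome subunits made 21.3 and 32.9 CPM in knockout VitD, 31.2 and 29.2 in knockout vehicle, 26.9 and 28.9 in WT VitD and 24.7 and 23.8 in WT vehicle. The ratio was higher in both WT VitD libraries than in WT vehicle, and the knockout groups overlapped.

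**Figure D4:**
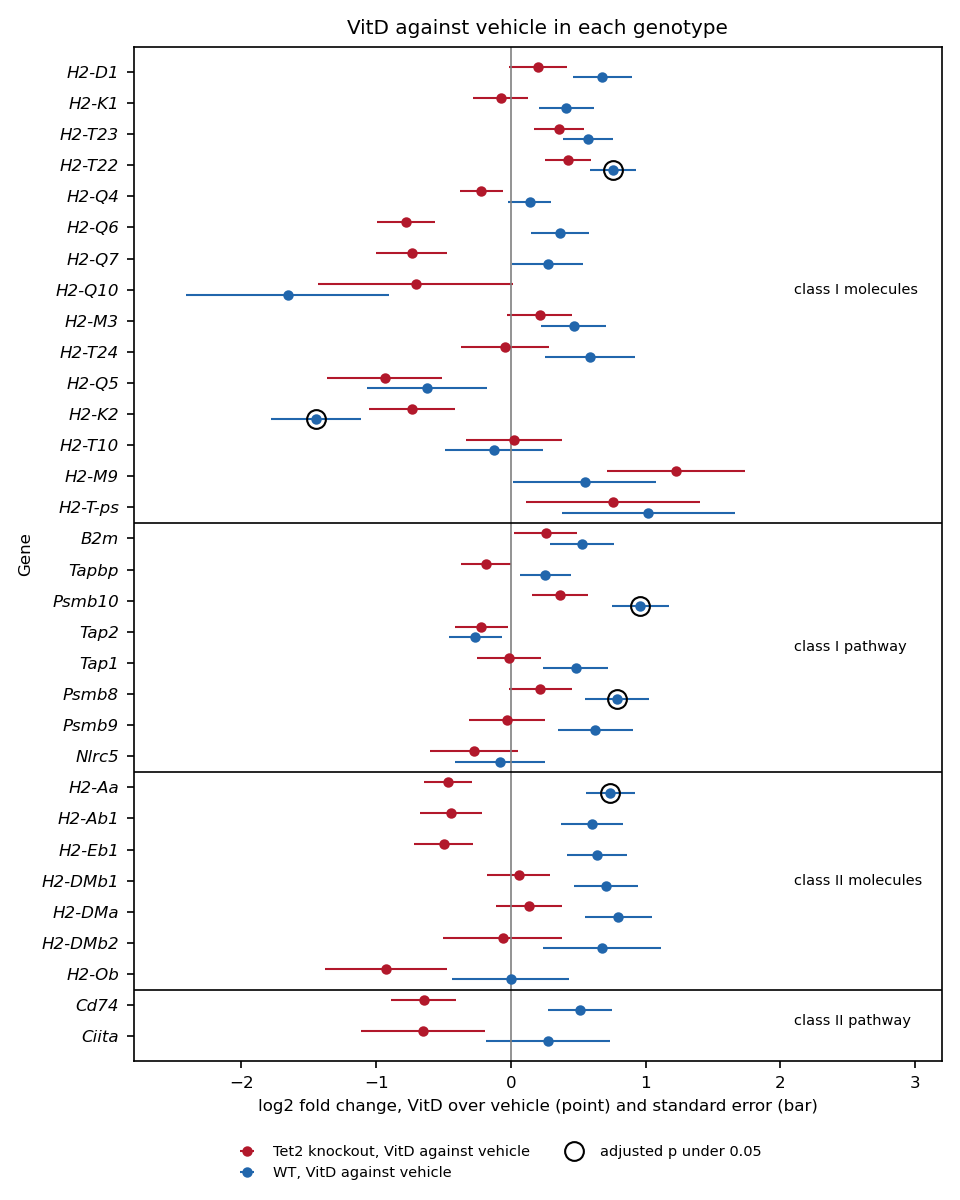
Log2 fold change of VitD over vehicle (horizontal axis) of the 32 tested genes, by class, in the libraries labelled Tet2 knockout and in WT. Bars are the standard error from the edgeR fit, and ringed points have an adjusted p under 0.05. All 9 class II genes lie further to the left in the knockout than in WT.

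Class I and class II were compared as lists by their medians and counts. In WT the median log2 fold change was 0.64 over the 9 class II genes and 0.47 over the 23 class I genes, with 8 of 9 and 17 of 23 positive, against 7844 of all 16194 genes. This order turned without WT VitD library 2, where the median was 0.50 for class II and 0.52 for class I. With the number range as a term it was 1.06 for class II and 0.53 for class I, and with a trend over exon length removed, 0.48 for class II and 0.29 for class I. Over the tested genes with a known length, the deviation of log2(CPM + 1) in a library from the mean of all libraries correlated with exon length (Spearman's rho, a description) at -0.31 and -0.22 in WT VitD, against 0.23 and -0.02 in WT vehicle, and at -0.06 and 0.16 in knockout VitD, against 0.19 and 0.27 in knockout vehicle. In the knockout the median log2 fold change was -0.47 for class II and -0.03 for class I. The interaction, which is the log2 fold change of VitD in the knockout minus that in WT, had a median of -0.93 for class II and -0.34 for class I, against 0.02 over all genes. It was negative in 9 of 9 class II and 18 of 23 class I genes, against 7841 of all 16194 genes. The difference between the classes was not tested, since genes of a class share cells and regulators.

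The interaction was called for 0 of the 32 genes by edgeR and by DESeq2, and for 0% of all genes by edgeR and 0.0959% by DESeq2. At an unadjusted p under 0.05 edgeR gave 6 lower and 0 higher of the 32, against 2.82% lower and 3.40% higher over all genes. They were H2-Aa (log2 -1.21, SE 0.253), Cd74 (-1.16, SE 0.337), H2-Eb1 (-1.14, SE 0.311), H2-Ab1 (-1.04, SE 0.327), H2-Q6 (-1.14, SE 0.305) and H2-Q7 (-1.01, SE 0.372). Each had an adjusted p of 0.794. Without any filter on low counts 3 passed the threshold (H2-Aa, H2-Eb1 and Cd74), as did 1.44% of all genes. The interaction contains the VitD difference in WT, which cannot be told apart from the number range. With that range as a term the class II median of the interaction was -1.23, against -0.93 without it.

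The sums per library show the same split. Class II molecules summed to 162 and 198 CPM in knockout VitD, against 216 and 265 in knockout vehicle, and to 254 and 302 in WT VitD, against 162 and 189.6 in WT vehicle. Class I molecules summed to 1399.7 and 1333 CPM in knockout VitD, against 1319 and 1327 in knockout vehicle, and to 1532 and 1497 in WT VitD, against 947 and 1171 in WT vehicle. For each 100 CPM of class I, class II made 11.5 and 14.9 CPM in knockout VitD, against 16.4 and 20.0 in knockout vehicle, and 16.6 and 20.2 in WT VitD, against 17.1 and 16.2 in WT vehicle. Both knockout VitD libraries had less class II for their class I than any other library, and the WT groups overlapped. With 2 libraries per group an exact permutation test cannot go below p = 0.333, so none was run on these sums.

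**Figure D5:**
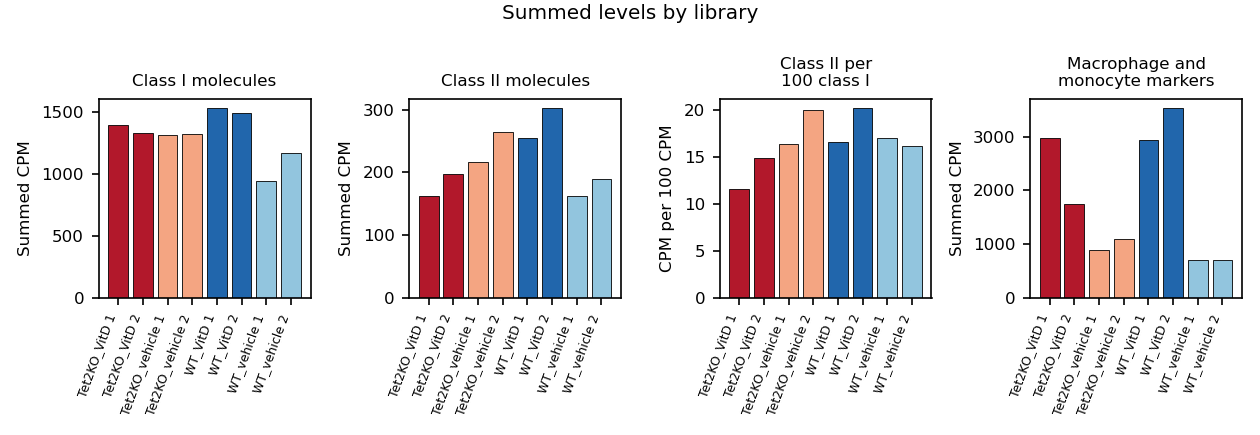
Summed CPM per library (linear axis) of class I molecules, class II molecules and macrophage and monocyte markers. A further panel gives class II CPM for each 100 CPM of class I. Each bar is a library, coloured by group (n = 2). The macrophage marker sum is higher under VitD in both genotypes. The class II sum is higher under VitD in WT and lower under VitD in the libraries labelled Tet2 knockout.

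Genotype was compared within each treatment, in fits that share the same libraries as those above. Under vehicle, 0 of the 32 genes were called by edgeR or DESeq2 between the libraries labelled Tet2 knockout and WT, with 0% of all genes called by edgeR and 0.105% by DESeq2. At an unadjusted p under 0.05 edgeR gave 5 higher (H2-Aa, Cd74, H2-Q4, H2-Q5 and H2-Q6) and 0 lower, against 1.86% higher and 1.11% lower over all genes. The knockout vehicle libraries lay above WT vehicle in 16 of the 32 and below in 0, against 14.3% and 15.5% of all genes. Cd74 (log2 0.70, SE 0.239, adjusted p = 1) and H2-Aa (log2 0.60, SE 0.179, adjusted p = 1) were among them.

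Under VitD, again 0 of the 32 were called by edgeR or DESeq2, with 0% of all genes called by edgeR and 0.619% by DESeq2. At an unadjusted p under 0.05 edgeR gave 0 higher and 6 lower, against 5.90% and 4.71% of all genes. The 6 were H2-Aa, H2-Ab1, H2-Eb1, H2-Ob, Psmb8 and Psmb10. The knockout libraries lay below WT in 8 of 9 class II genes and above in 0, against 21.6% and 22.2% of all genes. H2-Eb1 (log2 -0.74, SE 0.22, adjusted p = 0.457) and H2-Aa (log2 -0.61, SE 0.179, adjusted p = 0.457) were among these. Among class I genes 8 of 23 lay below and 3 above.

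Markers of immune cells were read beside these genes. The 15 macrophage and monocyte markers summed to 2983 and 1748 CPM in knockout VitD, against 892 and 1089 in knockout vehicle, and to 2929 and 3526 in WT VitD, against 698 and 701 in WT vehicle. In WT 14 of 15 were called higher, against 10.6% of all genes. In the knockout 0 of 15 were called, with a median log2 of 1.22, against 0.198% of all genes called. The class II sum thus lay below vehicle in the knockout VitD libraries while the macrophage marker sum lay above it. Lyz2 made much of the latter, at 1343 and 641 CPM in knockout VitD, against 295 and 371 in knockout vehicle. Ptprc had a negative log2 in the knockout (-0.32). Its groups overlapped there, as did those of Csf1r and Ly6c2, and every other marker of the list had both VitD libraries above both vehicle libraries. For each CPM of macrophage markers, class II molecules made 0.0541 and 0.113 CPM in knockout VitD, against 0.242 and 0.243 in knockout vehicle, and 0.0868 and 0.0857 in WT VitD, against 0.232 and 0.27 in WT vehicle. The ratio was lower under VitD than under vehicle in both genotypes.

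Dendritic cell markers (9 genes) summed to 35.7 and 38.1 CPM in knockout VitD, against 42.8 and 43.8 in knockout vehicle, and to 38.7 and 39.2 in WT VitD, against 35.2 and 36.3 in WT vehicle. B cell markers (8 genes) summed to 7.45 and 7.96 CPM in knockout VitD, against 11.5 and 17.5 in knockout vehicle, and to 9.13 and 16.1 in WT VitD, against 7.09 and 11.2 in WT vehicle. Both sums were lower under VitD than under vehicle in the knockout, as that of class II was, and none of their genes was called there. The tested dendritic cell genes were split there, with a median log2 of 0.06, and that of the B cell genes was -0.91. Itgax, Flt3, Clec9a and Ccr7 had positive values, and Zbtb46, Siglech, Cd209a and Batf3 negative ones. Zbtb46 made much of the dendritic cell sum, at 18.1 and 19.4 CPM in knockout VitD, against 27.4 and 24.6 in knockout vehicle. In WT 2 dendritic cell markers were called higher and 1 lower of 8 tested, and 0 of 8 B cell markers, against 10.6% higher and 9.47% lower of all genes. The part of these cells in the class II values was not tested.

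Other markers differed between libraries as well. The 12 T cell and thymocyte markers summed to 7.08 and 5.41 CPM in knockout VitD, against 23.2 and 43.3 in knockout vehicle, and 7 neutrophil markers to 30.8 and 57.5 CPM in WT VitD, against 5.03 and 1.59 in WT vehicle, with 4 of 4 tested called higher. The 5 skeletal muscle markers summed to 93.3 and 411 CPM in WT VitD, against 25.9 and 30.5 in WT vehicle, with 5 of 5 called higher. The 6 smooth muscle markers summed to 22011 and 14776 CPM in WT VitD, against 28407 and 29260.0 in WT vehicle, with 2 called lower. Of all genes, 10.6% were called higher and 9.47% lower in WT. Knockout VitD library 1 stood apart in 6 endothelial markers, at 4243 CPM against 1244 to 2649 in the other libraries, and in 6 fat markers, at 908 CPM against 1695 to 2854. The 6 thymic epithelial markers, whose cells also make class II, summed to 3.66 to 9.07 CPM per library. Foxn1, Psmb11, Prss16, Aire and Epcam of that list were each at 0 in at least 1 library. Ribosomal protein genes took 5.33 and 5.44% of counts in WT VitD, against 2.3 and 2.52% in WT vehicle, and 4.76 and 2.53% in knockout VitD, against 2.06 and 2.23% in knockout vehicle. This share thus followed the number range. It was 4.76 to 5.44% in the 3 libraries of the higher range and 2.06 to 2.53% in the 5 of the lower one, knockout VitD library 2 included. The part of these markers and genes in the differences was not tested.

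The other genes of these routes were counted from lists chosen by function. Of 12 genes of the class II route outside the MHC, 7 were called higher and 1 lower in WT, and 1 higher in the knockout. Over all genes, 10.6% were called higher and 9.47% lower in WT, and 0.198% either way in the knockout. Calls in WT cannot be told apart from the number range here either. Ctss, the protease cathepsin S that trims the invariant chain, stood at 179 and 113 CPM in knockout VitD, against 31.2 and 40.8 in knockout vehicle (log2 2.01, SE 0.275, adjusted p = 0.0396), and at 146 and 194 in WT VitD, against 25.7 and 20.9 in WT vehicle (log2 2.87, SE 0.285, adjusted p = 0.00273). It rose in both genotypes. Lgmn, the endosomal protease legumain (log2 1.61, SE 0.208, adjusted p = 0.00445), Ifi30, which reduces disulfide bonds of antigens (log2 1.19, SE 0.17, adjusted p = 0.00665), and the costimulatory ligand Cd86 (log2 1.72, SE 0.321, adjusted p = 0.0132) rose in WT and were not called in the knockout, where their log2 values were 0.92, 0.92 and 0.99. The gene called lower was Rfx5, which encodes a subunit of the factor that binds the X box (log2 -0.97, SE 0.237, adjusted p = 0.0258).

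Of 13 tested genes of the interferon gamma axis, 3 were called higher in WT and 0 in the knockout. The shares of all genes were 10.6% higher and 9.47% lower in WT, and 0.198% either way in the knockout. The 3 were the guanylate-binding protein genes Gbp3 (log2 1.34, SE 0.187, adjusted p = 0.00614) and Gbp2 (log2 0.66, SE 0.17, adjusted p = 0.0304) and the myeloid transcription factor gene Irf8 (log2 2.06, SE 0.322, adjusted p = 0.00869). Of 11 genes of class I peptide supply and loading outside the MHC, 0 were called in either genotype by edgeR. The smallest p among them in WT were those of the proteasome activator genes Psme2 (log2 0.49, SE 0.17, adjusted p = 0.0684) and Psme1 (log2 0.38, SE 0.153, adjusted p = 0.106). Of 5 class I-like genes, 0 were called in either genotype by edgeR. Among these, Fcgrt, the neonatal Fc receptor (log2 0.46, SE 0.189, adjusted p = 0.11), and Mr1, which presents vitamin B metabolites (log2 -0.47, SE 0.198, adjusted p = 0.121), had opposite signs in WT.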

How the data were processed

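Poly-A enriched libraries of total RNA from the whole aortic tree were made with a stranded kit, per the labels' protocols. The deposited values are raw counts, 1 row per symbol. The submitters' processing notes name mm10, Trimmomatic 0.39, STAR 2.7.8a and featureCounts 2.0.2. No source used here states the annotation release, the strand setting or how multi-mapped reads were treated. Groups and replicate numbers came from the sample titles.

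Counts were fitted with edgeR 4.0.16 in R 4.3.3 (TMM, filterByExpr, quasi-likelihood, 1 mean per group over all 8 libraries, 4 residual degrees of freedom), and p-values were adjusted by Benjamini-Hochberg over the 16194 genes tested, with a threshold of 0.05. SE is the size of the log2 fold change divided by the square root of F. Coordinates came from GENCODE M21 (mm10), where 95.5% of symbols and all 55 antigen presentation genes matched 1 gene. The genes and lists were chosen with earlier results of these data known. Every antigen presentation gene could be named. From other lists, the up to 4 genes with the smallest p in WT were named, and Rfx5 and Psmb5 because their lists had 1 call of that kind. Alternatives were other size factors, DESeq2 1.42.0, other filters, a replicate block, the library number range, fits of only the groups compared and leaving out each library. Removal of a trend with exon length was added after seeing the data. Medians of lists carry no test.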

Additional observations from a re-analysis of the deposited data

Results flagged for a closer look

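In 7 genes every VitD library lay above every vehicle library in WT and below every vehicle library in the libraries labelled Tet2 knockout, a pattern found in 120 of all 16194 genes (0.741%). They were 4 of 9 class II genes and 3 of 23 class I genes. Some margins were small. For H2-Ab1, knockout VitD library 2 stood at 63.57 CPM, against 63.76 in knockout vehicle library 1. For H2-Q6, WT VitD library 2 stood at 25.59 CPM, against 24.95 in WT vehicle library 2. The difference between genotypes was tested as an interaction by edgeR's quasi-likelihood test, and 0 of the 7 passed the threshold after adjustment. The interaction log2 was -1.21 for H2-Aa (adjusted p = 0.794), -1.16 for Cd74 (adjusted p = 0.794), -1.14 for H2-Eb1 (adjusted p = 0.794) and -1.04 for H2-Ab1 (adjusted p = 0.794). Among class I genes it was -1.14 for H2-Q6 (adjusted p = 0.794), -0.44 for Tapbp (adjusted p = 0.831) and -0.36 for H2-Q4 (adjusted p = 0.841). The WT part of the pattern and of the interaction cannot be told apart from the number range. Groups of 2 libraries are too small for the test of a single outlying value within a group. Without 1 library the median interaction of the class II genes lay between -1.26 (without WT vehicle library 2) and -0.67 (without WT vehicle library 1).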

How the results depend on the processing

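Of 309 values of the 35 single-gene results under alternatives other than leaving out a library, 283 kept their side of the threshold, 7 lost it, 19 gained it and 0 changed direction. Of 280 values without 1 library, the numbers were 246, 21, 13 and 0. The number of antigen presentation genes called in WT, 5 as reported, was 8 with DESeq2 (24.2% of all genes). It was 10 without a filter on low counts (17.2%) and 10 in a fit of only the groups compared (29.8%). Those without a filter included H2-Q10 and H2-Q2 as called lower, and H2-Q2 is not among the 32 tested genes. With the library number range as a term the number called was 0 (0.358%). It ran from 0 to 11 without 1 library. In the knockout it was 0 as reported, 1 without a filter (4.37%), and 0 to 2 without 1 library. Between genotypes under VitD it was 2 without a filter (2.18%), and for the interaction 3. The cause was not tested. Between genotypes under vehicle it was 0 in every alternative. Replicate numbers did not pair the libraries, since correlations of deviations between same-numbered libraries ran from -0.189 to 0.166. With the replicate number as a block 5 genes were called in WT (15.3% of all), of which 4 were shared with the 5 reported, and 0 in the other comparisons. The class II median of the interaction lay between -1.26 and -0.67 over the alternatives. That of class I in the knockout changed sign among them, from -0.25 to 0.14. Having 2 libraries per group limits the precision of every value.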
